A study of Mus musculus with 6 samples.

Results

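Solute carriers are membrane proteins that move nutrients, ions, metals, neurotransmitters and waste products across the plasma membrane and the membranes of organelles, driven by the gradient of the substrate or of an ion moved with it. They are grouped into numbered families by sequence similarity, and members of a family often share a kind of substrate. In the ear they are best known for the ion transport that sets the composition of endolymph, and in a young embryo they also supply growing tissue with amino acids, sugars, metals and lactate exchange. The genes described here are those with a symbol starting with Slc and a digit, or with Slco, in any of the 4 lists of differentially expressed genes that the authors deposited. The glucose transporter genes Slc2a1 and Slc2a3 were left out. This gave 29 genes of 1167 distinct listed genes, and all 29 were found in the GENCODE M21 mouse annotation, which holds 383 protein-coding genes under the same rule.

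RNA was sequenced from otocysts, the epithelial vesicles that become the inner ear, at embryonic day 10.5. The homozygous embryos were Chd7Gt/Gt, the heterozygous embryos Chd7Gt/+ and the wild type embryos Chd7+/+, all on the B6129SF1/J background, with 2 libraries per genotype and no other allele or treatment in the labels. Gt stands for a gene trap in mouse nomenclature, and Chd7 encodes a chromatin remodelling enzyme. The allele was carried by the whole embryo, so the otocyst and the tissue around it had the same genotype. The labels do not say whether a library came from 1 embryo or from pooled otocysts, so the authors' p-values may rest on technical spread alone.

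The lists give 1 log2 fold change and 1 adjusted p per gene for a mutant genotype over wild type, and only for genes under an adjusted p of 0.05. No value of a single library was used here. Depth and replicate spread are therefore unknown, and levels of the ear markers that would check the tissue label were not seen. A solute carrier gene that is not listed either fell short of the threshold or was not measured. Because the genes were taken from lists of calls, each of them had to pass, and their folds are a description. Chd7 itself was at 22.4% of wild type in homozygotes (log2 fold -2.16) and at 67.1% in heterozygotes (log2 fold -0.57) in the authors' deposited table, the direction that the genotype labels name.

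In homozygotes 12 solute carrier genes were in the higher list and 16 in the lower list, and 355 annotated ones were not listed. The higher genes came mainly from 2 substrate classes, the amino acid transporters with 5 and the monocarboxylate transporters with 4. The lower genes were spread over transporters of neurotransmitters, organic anions, sugars, metals and ions. The 12 higher genes were 3.13% of the 383 annotated solute carrier genes, beside 1.78% of the 21924 annotated protein-coding genes. The 16 lower genes were 4.18% of the annotated solute carrier genes, beside 2.97% of protein-coding genes. Both totals may include genes that an otocyst does not express. With 10000 genes as the total the shares of all genes would be 3.9% and 6.51%. The total of 383 solute carrier genes was not reduced with it. Whether the solute carriers lie above or below the share among expressed genes therefore cannot be told. Of the 28, 57.1% were lower, beside 61.7% of all 1085 listed genes.

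**Figure D1:**
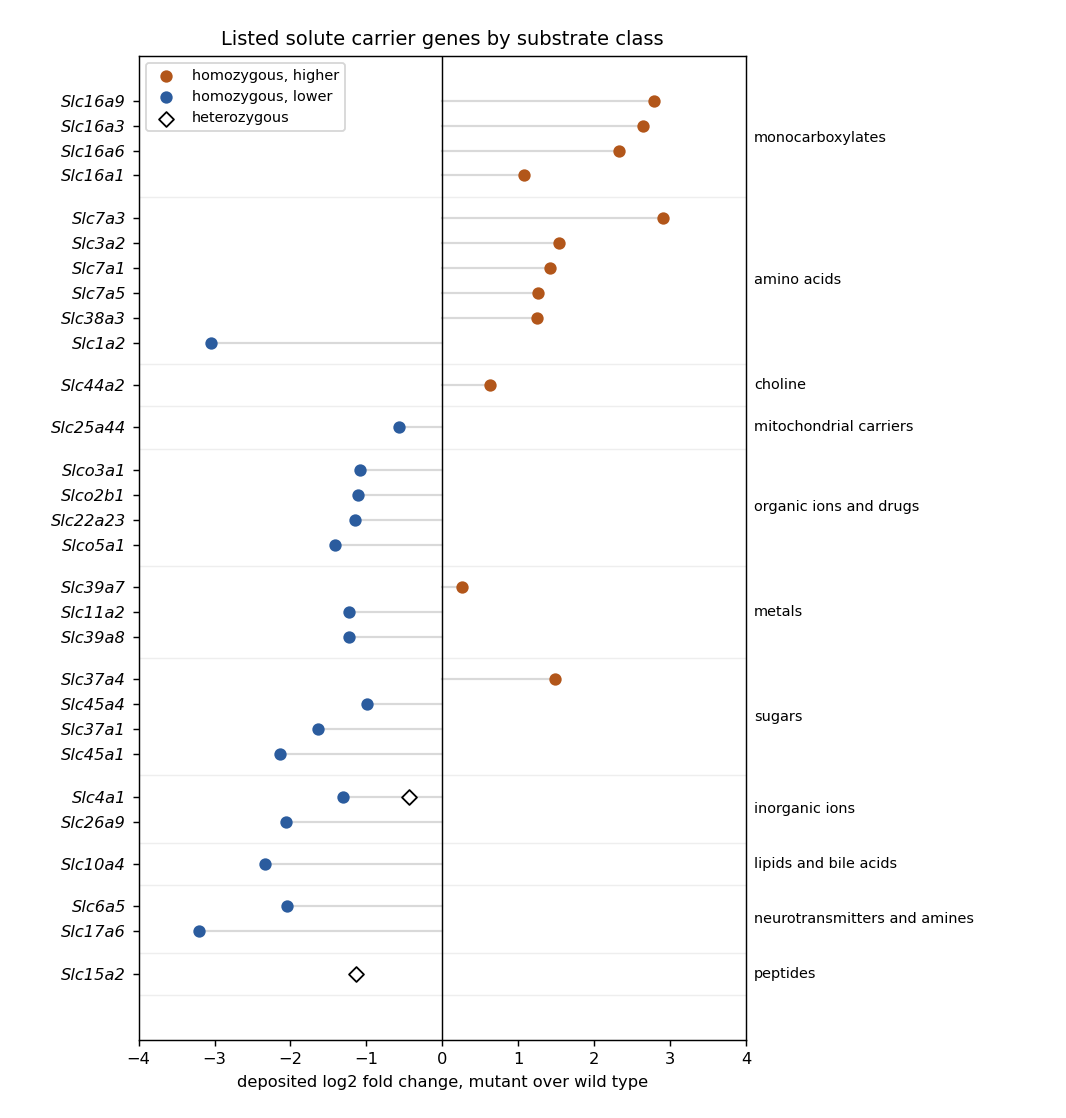
Deposited log2 fold change over wild type (horizontal axis) of the 29 listed solute carrier genes (vertical axis), set out by substrate class, with filled circles for homozygotes and open diamonds for heterozygotes. The 4 monocarboxylate transporter genes and 5 of the 6 amino acid transporter genes lie to the right of 0, and the 4 genes for organic ions and drugs and both neurotransmitter genes lie to the left.

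The sizes of the folds were close to those of other listed genes. The 12 higher solute carrier genes had a median log2 fold of 1.45 with a range of 0.26 to 2.90, beside a median of 1.31 for all 416 higher genes, by the authors' deposited table. The median log2 fold of the 16 lower ones was -1.37 with a range of -3.20 to -0.57, beside -1.35 for all 669 lower genes, by the authors' deposited table. None stood at the top of its list. The highest was Slc7a3, in place 35 of 416 by fold, and the lowest was Slc17a6, in place 25 of 669, when genes in the authors' deposited table are ordered by fold.

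**Figure D2:**
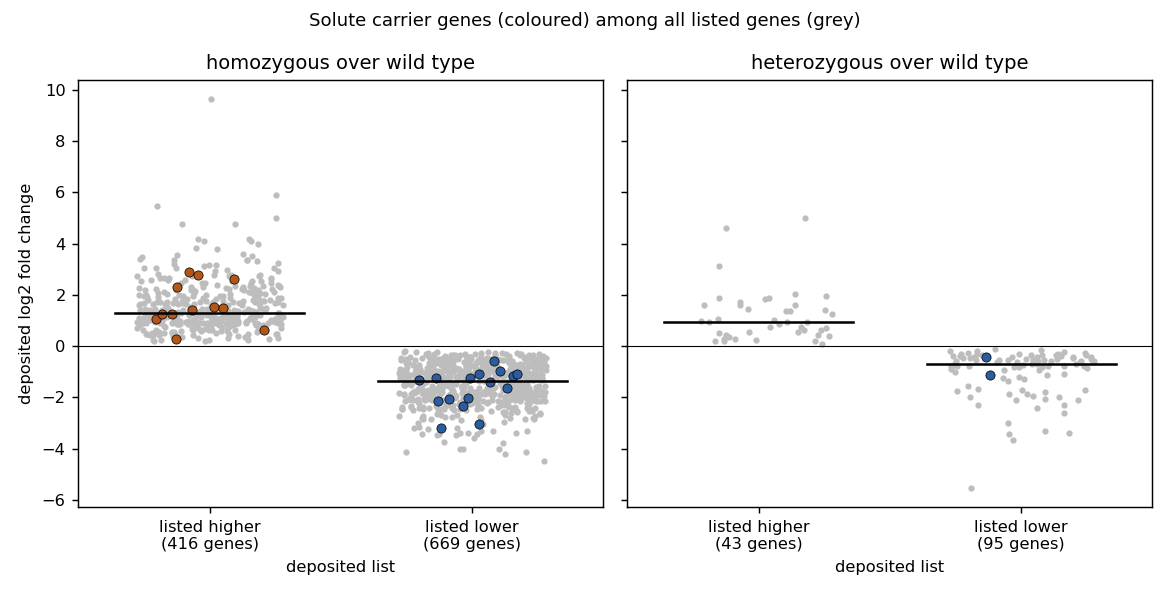
Deposited log2 fold change (vertical axis) of every listed gene, by comparison and direction (horizontal axis), with solute carrier genes coloured, all other listed genes grey and the black line at the median of all genes in the list. The solute carrier genes lie on both sides of the medians, and no heterozygous higher gene is a solute carrier.

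Monocarboxylate transporters carry lactate, pyruvate, ketone bodies and related molecules, and in cells that run glycolysis they export the lactate it makes. Of 14 annotated genes of family 16, 4 were higher in homozygotes, beside 1.78% of protein-coding genes, and the other 10 were not listed. Slc16a9, which encodes MCT9, a transporter linked to carnitine in people, was 6.90-fold higher (log2 2.79 and adjusted p 0.000166, by the authors' deposited table). Slc16a3 encodes MCT4, the lactate exporter of strongly glycolytic cells. It was 6.23-fold higher (log2 2.64), with an adjusted p given as 0 in the authors' deposited table. Slc16a6, which encodes MCT7, an exporter of ketone bodies in zebrafish liver, was 5-fold higher (log2 2.32 and adjusted p 1.9e-09, by the authors' deposited table). The widely expressed lactate transporter gene Slc16a1, encoding MCT1, rose least, at 2.11-fold (log2 1.08 and adjusted p 0.0062, by the authors' deposited table). Together these genes ran from place 38 to place 273 of 416 by fold.

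MCT1 and MCT4 reach the cell surface bound to basigin, a single-span membrane protein encoded by Bsg. Bsg was 2.47-fold higher in homozygotes (log2 1.30 and adjusted p 0.000162, by the authors' deposited table). Embigin, encoded by Emb, is the other such partner and was not listed. Of 11 symbols in a list of transporter partner subunits, 2 of which name the same gene, Bsg and Slc3a2 were higher in homozygotes. The other 9 were not listed, and 1.78% of protein-coding genes were listed as higher. The 2 glucose transporter genes outside the rule were also higher, Slc2a3 at 18.3-fold and Slc2a1 at 5.87-fold in the authors' deposited table.

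The promoters of the 2 lactate transporter genes that use basigin are shown because their genes rose together with the glucose transporter genes and Bsg. Each is the stretch of 250 bases before the start of the gene, on the plus strand, from RefSeq on GRCm38.p6, which is not the build the submitters name. Capitals mark the letters ACGTG on either strand, a form of the core of the element that hypoxia-inducible factors bind. The other form, GCGTG, was not searched for, marked or counted. The windows lie at chr3:104638414-104638663 for Slc16a1 and at chr11:120948817-120949066 for Slc16a3.
Slc16a1: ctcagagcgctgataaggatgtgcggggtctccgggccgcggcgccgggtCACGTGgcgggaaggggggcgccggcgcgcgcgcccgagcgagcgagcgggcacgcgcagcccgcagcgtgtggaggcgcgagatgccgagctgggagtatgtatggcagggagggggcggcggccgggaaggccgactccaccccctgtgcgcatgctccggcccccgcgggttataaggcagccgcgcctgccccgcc
Slc16a3: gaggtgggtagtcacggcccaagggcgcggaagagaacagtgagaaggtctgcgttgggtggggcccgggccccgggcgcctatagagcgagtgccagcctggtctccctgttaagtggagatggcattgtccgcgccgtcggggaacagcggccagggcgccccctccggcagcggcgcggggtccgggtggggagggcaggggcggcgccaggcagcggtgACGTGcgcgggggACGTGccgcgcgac

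In the Slc16a3 window the letters ACGTG begin 27 and 14 bases before the start. In the Slc16a1 window they occur on both strands at the same place, 200 bases before the start, as the palindrome CACGTG, which is also an E-box. Of the 18 solute carrier genes with a promoter window in RefSeq's table, 6 held ACGTG, beside 18.5% of all 27025 genes with a window. These were 3 of 8 higher genes in homozygotes (Slc16a1, Slc16a3 and Slc3a2), 2 of 9 lower ones (Slc39a8 and Slc6a5) and Slc15a2, listed in heterozygotes alone. A gene was counted if any of its windows held the letters. The 18 genes had 27 windows, and 16.6% of all 32851 windows held ACGTG. The Slc16a9 window did not hold these letters. A match describes letters and is not a bound site. The part of hypoxia-inducible factors in the rises of these genes was not tested.

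Amino acid transporters bring in the building blocks of protein and, as exchangers, trade one amino acid for another. Of 52 annotated genes in this class, 5 were higher in homozygotes and 1 was lower, beside 1.78% and 2.97% of protein-coding genes. The other 46 were not listed. The largest rise was that of Slc7a3, which encodes CAT3, a transporter of arginine and lysine, at 7.49-fold (log2 2.90 and adjusted p 1.08e-06, by the authors' deposited table). The related gene Slc7a1, encoding the widespread cationic amino acid transporter CAT1, was 2.67-fold higher (log2 1.41 and adjusted p 0.000604, by the authors' deposited table). These are the only listed genes for cationic amino acid transporters, and they rose by different amounts.

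Both chains of the leucine and large neutral amino acid exchanger LAT1 were higher. Its heavy chain CD98, encoded by Slc3a2, was 2.91-fold higher (log2 1.54 and adjusted p 1.04e-05, by the authors' deposited table). The light chain, encoded by Slc7a5, was 2.40-fold higher (log2 1.26 and adjusted p 0.00228, by the authors' deposited table). CD98 also serves other light chains, and the gene of the cystine exchanger light chain, Slc7a11, was not listed. Slc38a3, encoding the glutamine transporter SNAT3, was 2.37-fold higher (log2 1.25 and adjusted p 0.0234, by the authors' deposited table). Its relative Slc38a2 was not listed.

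Several of these amino acid transporter genes are known targets of ATF4, the transcription factor of the amino acid and integrated stress responses. Of 25 ATF4 target enzymes and factors, 11 were higher in homozygotes and 0 lower, beside 1.78% and 2.97% of protein-coding genes. By the authors' deposited table those 11 had a median log2 fold of 1.88. They included the secreted glycoprotein gene Stc2 (log2 3.61), the translation inhibitor gene Eif4ebp1 (1.99), the lipoprotein receptor gene Vldlr (2.36) and the asparagine synthetase gene Asns (1.88) in the authors' deposited table. The letters TGATGNAA are the start of the element that ATF4 binds with its partners. They were in the window of 0 of the 18 solute carrier genes with one, on either strand. Among all genes with a window the share was 3.91%. At that share a set of 18 genes would include few with the letters or none. The windows hold only bases before the start of a gene, so an element elsewhere could not be found. Nothing is read from this absence. Slc3a2 and Slc7a1 were among the 18, while Slc7a3, Slc7a5 and Slc38a3 had no window. In heterozygotes 0 of the 25 ATF4 genes and 0 of the amino acid transporter genes were listed. Only 0.611% of protein-coding genes were listed in heterozygotes, so nothing is read from these counts. The part of ATF4 in the rises of the amino acid transporter genes was not tested.

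The amino acid transporter gene that fell was Slc1a2, which encodes GLT-1, the glutamate transporter that clears glutamate around synapses in the brain. It was at 12.1% of wild type in homozygotes (log2 -3.05), with an adjusted p given as 0 in the authors' deposited table. Slc1a3, the gene of the other main glutamate transporter of glia, was not listed. Both listed neurotransmitter genes also fell. Slc17a6, encoding VGLUT2, which loads glutamate into the synaptic vesicles of excitatory neurons, was at 10.9% of wild type (log2 -3.20 and adjusted p 0.000103, by the authors' deposited table). Slc6a5, encoding the glycine transporter GlyT2 of inhibitory neurons, was at 24.3% of wild type (log2 -2.04 and adjusted p 0.0409, by the authors' deposited table).

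Slc10a4 belongs by number to the bile acid transporters, but its protein sits in synaptic vesicles of cholinergic and monoamine neurons. It was at 19.7% of wild type in homozygotes (log2 -2.34 and adjusted p 0.0301, by the authors' deposited table). Slc17a7 and Slc17a8, which encode the other vesicular glutamate transporters, Slc32a1, which encodes the vesicular transporter of inhibitory neurons, and all 4 annotated genes of family 18 were not listed. Of 15 neuron markers, 12 were lower and 0 higher in homozygotes, beside 2.97% and 1.78% of protein-coding genes. Those 12 had log2 folds between -4.13 and -1.83 in the authors' deposited table. Of 15 hindbrain and spinal cord markers, 4 were lower, 2 higher and 9 not listed, beside the same shares. Their part in the falls of Slc17a6, Slc1a2, Slc6a5 and Slc10a4 was not tested, and in RNA from whole tissue fewer cells of a type and less RNA per cell cannot be told apart.

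Of 14 annotated Slco genes, which encode organic anion transporting polypeptides, 3 were lower in homozygotes, beside 2.97% of protein-coding genes. The other 11 were not listed. Slco5a1, an orphan member, was at 37.5% of wild type (log2 -1.42 and adjusted p 0.0108, by the authors' deposited table). Slco2b1, a carrier of steroid sulphates, was at 46.5% (log2 -1.11 and adjusted p 0.00584, by the authors' deposited table). Slco3a1 was at 47.1% (log2 -1.08 and adjusted p 0.00426, by the authors' deposited table). The orphan gene Slc22a23 of the organic ion transporters was at 45% (log2 -1.15), with an adjusted p of 0.0482 in the authors' deposited table, the closest to the threshold among all the solute carrier genes. By the authors' deposited table the log2 folds of these 4 genes all lay between -1.42 and -1.08.

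Sugar and sugar phosphate transporters moved in both directions. Slc37a4, which encodes the glucose-6-phosphate transporter of the endoplasmic reticulum, was 2.79-fold higher in homozygotes (log2 1.48 and adjusted p 0.00368, by the authors' deposited table). Slc37a1, which encodes a sugar phosphate exchanger of the same family, was at 32.1% of wild type (log2 -1.64 and adjusted p 0.00859, by the authors' deposited table). Slc45a1, a proton-coupled glucose transporter of the brain, was at 22.6% of wild type (log2 -2.14 and adjusted p 0.0311, by the authors' deposited table). Its relative Slc45a4 was at 50.4% (log2 -0.99), with a smaller adjusted p of 1.1e-06, in the authors' deposited table.

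Metal transporters were likewise divided. Slc39a7, encoding ZIP7, which releases zinc from the endoplasmic reticulum and Golgi, had the smallest fold of all, 1.2-fold higher (log2 0.26 and adjusted p 0.0263, by the authors' deposited table). It was in place 410 of 416 by fold. Slc39a8, encoding the zinc and manganese importer ZIP8, was at 42.5% of wild type (log2 -1.23 and adjusted p 0.000366, by the authors' deposited table). Slc11a2, encoding the iron transporter DMT1, was at 42.7% (log2 -1.23 and adjusted p 0.000229, by the authors' deposited table). The iron exporter gene Slc40a1 was not listed.

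Of 52 annotated ion transporter genes, 2 were listed in homozygotes, both lower. That is 3.85% of the class, beside the 4.75% of protein-coding genes listed in either direction. Slc26a9, encoding an epithelial chloride transporter, was at 24% of wild type (log2 -2.06 and adjusted p 0.00578, by the authors' deposited table). Slc4a1, encoding band 3, the chloride and bicarbonate exchanger of red blood cells, was at 40.2% (log2 -1.31 and adjusted p 0.0197, by the authors' deposited table). The genes best known for ion transport in the ear, namely Slc26a4 (pendrin), Slc12a2 (the sodium, potassium and chloride cotransporter), Slc26a5 (prestin) and Slc4a11, were not listed in either genotype. They were picked from textbook knowledge after the lists had been seen.

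The remaining homozygous genes had small folds. Slc44a2, which encodes a choline transporter-like protein known as an antigen of inner ear supporting cells, was 1.54-fold higher (log2 0.62 and adjusted p 0.00103, by the authors' deposited table). Slc25a44, which encodes a mitochondrial carrier of branched-chain amino acids, was at 67.5% of wild type (log2 -0.57 and adjusted p 0.000805, by the authors' deposited table). It was the only listed gene of the 47 annotated mitochondrial carriers. No gene was listed among the 27 annotated nucleotide sugar transporters, the 21 for vitamins, nucleosides and haem, or the 14 for phosphate, sulphate and carboxylates. With 4.75% of protein-coding genes listed in homozygotes, classes of these sizes would hold few listed genes at that share, and nothing is read from the absence.

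**Figure D3:**
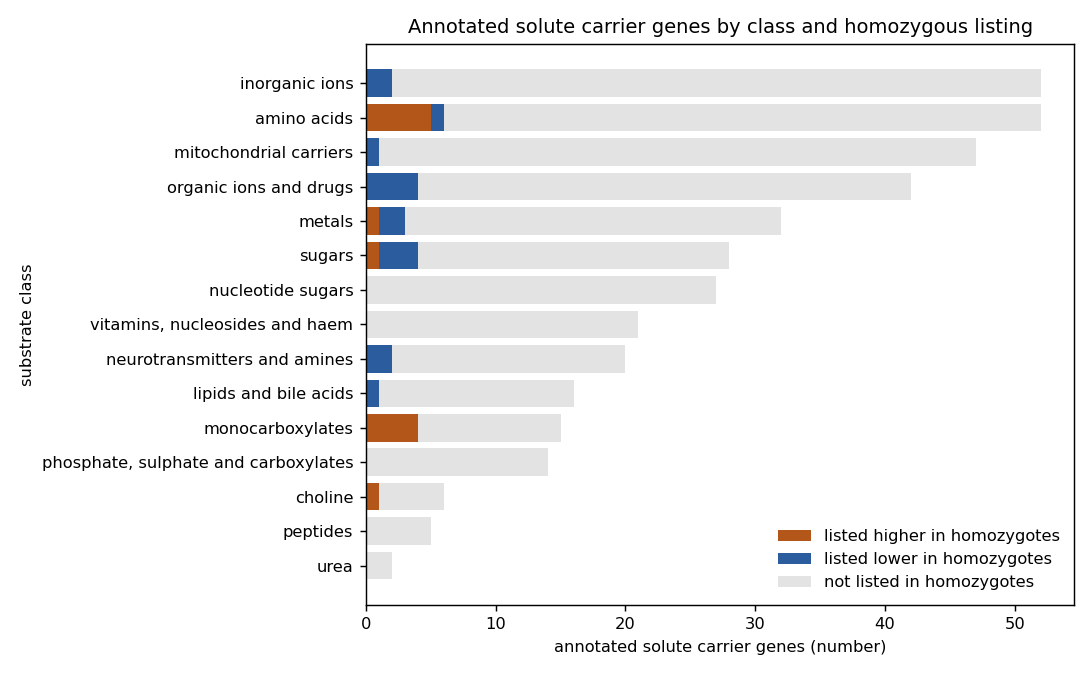
Number of annotated solute carrier genes (horizontal axis) in each substrate class (vertical axis), divided into those listed as higher, listed as lower and not listed in homozygotes, with 4 genes left out that carry an Slc symbol but encode no transporter. The amino acid class holds 5 higher and 1 lower gene, the monocarboxylate class 4 higher and 0 lower, and most genes of every class were not listed.

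Pumps, channels and ABC transporters, the other transport machinery of the cell, were counted in the same way. Of 22 genes for sodium-potassium and calcium pumps and their partners, 12 aquaporin genes and 40 ABC transporter genes, 0 were listed in homozygotes or heterozygotes. Of 25 proton pump subunit genes, the vacuolar proton pump gene Atp6v0a2 alone was listed, at 44.5% of wild type in homozygotes (log2 -1.17 and adjusted p 0.0457, by the authors' deposited table). Each list is short beside the 4.75% of protein-coding genes listed in homozygotes and the 0.611% listed in heterozygotes, so these counts do not set them apart.

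In heterozygotes 2 solute carrier genes were listed, both lower, and 0 were higher. They were 0.522% of the annotated solute carrier genes, beside 0.429% of protein-coding genes listed as lower, while 0.182% of protein-coding genes were listed as higher. Slc15a2, which encodes PEPT2, an importer of small peptides, was at 45.4% of wild type in heterozygotes (log2 -1.14 and adjusted p 0.000374, by the authors' deposited table). It was in place 29 of 95 lower genes by fold and was not listed in homozygotes. The difference between the genotypes was not tested for it. Of 15 hindbrain and spinal cord markers, 8 were lower and 0 higher in heterozygotes, beside the same shares of protein-coding genes. Their part in the fall of Slc15a2 was not tested.

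Slc4a1 was the only solute carrier gene in the lists of both genotypes, which share their wild type libraries. Its log2 fold was -1.31 in homozygotes and -0.44 in heterozygotes (adjusted p 0.0217 in heterozygotes) in the authors' deposited table, which is 40.2% of wild type in homozygotes and 73.8% of wild type in heterozygotes. Of 15 erythroid markers, 1 was lower in homozygotes and 3 in heterozygotes, beside 2.97% and 0.429% of protein-coding genes. In homozygotes it was Hba-a2, at -1.47 on the log2 scale in the authors' deposited table. In heterozygotes the log2 folds were -2.44 for Hbb-b2, -0.36 for Hba-x and -0.30 for Hba-a1 in the authors' deposited table. Reads of Hba-a1 and Hba-a2, and of Hbb-b2 and its paralogue, can be split between near-identical copies. How much blood each dissection held was not measured, and its part in the falls of Slc4a1 was not tested. The other 27 homozygous solute carrier genes were not listed in heterozygotes.

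Lower genes had longer transcripts at the median, among the solute carriers and among all listed genes. Taking each gene's longest annotated transcript, the median was 3636 nt for the 12 higher and 4480 nt for the 16 lower solute carrier genes. For all listed genes in homozygotes the medians were 2698 nt among higher and 4868 nt among lower genes. The part of length in the calls was not tested. Slc7a3 was the only solute carrier gene of the 29 on the X chromosome. The X-inactivation transcript Xist was listed as higher in homozygotes (log2 9.64 in the authors' deposited table) and was not listed in heterozygotes. The sex of the embryos is not in the labels, and it may have differed between the homozygous and wild type libraries. In that case sex and genotype cannot be told apart for any of the 28 solute carrier genes listed in homozygotes. The part of sex in the rise of Slc7a3 was not tested.

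**Figure D4:**
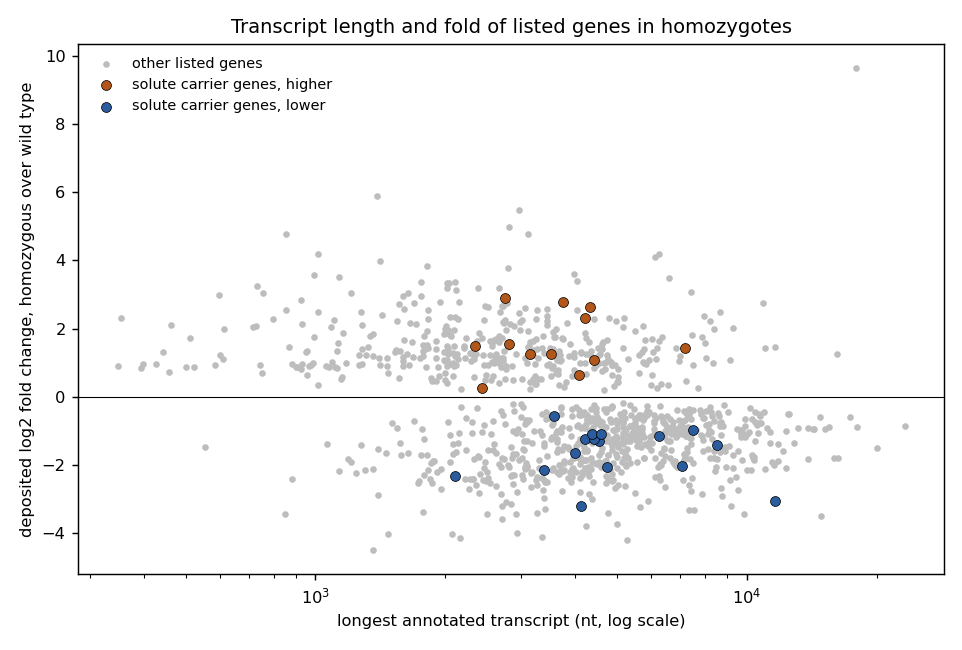
Deposited log2 fold change in homozygotes (vertical axis) against the longest annotated transcript (horizontal axis, log scale) for each listed gene with an annotated length. Solute carrier genes lie between 2106 and 11595 nt, with higher and lower ones overlapping in length.

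Some counts may hold reads of other genes. The kit named in the labels does not mark strand, and 7 of the 29 genes share exon bases with another annotated gene. For Slc16a6 these include 1052 bases of the protein-coding gene Amz2 on the opposite strand, and for Slc11a2 402 bases of the predicted gene Gm5475, neither of which was listed. Slc39a7 shares 2084 bases with the transcript Gm20427 on its own strand. How reads over such bases were counted is not given in the sources used here.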

How the data were processed

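Polyadenylated RNA from otocysts was sequenced in 2 libraries per genotype, per the labels, and groups were taken from the genotype in each title. The authors deposited 4 lists of called genes. Per the file headers they hold the authors' log2 fold changes and adjusted p-values. Bowtie2 2.0.6, DESeq 1.22.1 and mm9 are named in the submitters' processing notes without a role. The largest deposited adjusted p-value is under 0.05. No test was run here. Folds, places by fold, counts and medians were computed from the deposited values with Python 3.11.15, numpy 2.4.6, pandas 2.3.3 and matplotlib 3.10.9. The membership rule was checked on a few chosen symbols, and the search for ACGTG on simulated sequences.

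Families and substrate classes follow the gene number, with single genes moved where their substrate is known. Annotated totals and lengths come from GENCODE M21, promoters from RefSeq, and neither gives coordinates in the submitters' build. The 21924 protein-coding genes stand in for the unknown number tested. Solute carrier genes, gene lists and marker lists were chosen with earlier results of these data known. Every listed solute carrier gene is named, with up to 4 listed genes of each other transport list by adjusted p. Other thresholds, symbol matching and gene totals were tried. Markers of neural crest, mesenchyme, endothelium, macrophages and endoderm were counted as well.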

Additional observations from a re-analysis of the deposited data

How the results depend on the processing

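In homozygotes the count of higher solute carrier genes, 12, was 10 at an adjusted p under 0.01, 10 with log2 folds of 1 or more in size, 14 with Slc2a1 and Slc2a3 included and 11 without the X-linked Slc7a3, the last chosen after seeing the data. The count of lower genes, 16, was 10 at an adjusted p under 0.01 and 14 with log2 folds of 1 or more in size. In heterozygotes the 2 lower genes became 1 under each of these 2 thresholds, Slc15a2. Current symbols and leaving out genes that encode no transporter changed no count. With a total of 10000 genes the listed share of all genes would be 3.9% higher and 6.51% lower in homozygotes and 0.4% higher and 0.94% lower in heterozygotes. With a total of 15000 it would be 2.6% higher and 4.34% lower in homozygotes and 0.627% lower in heterozygotes. The shares of annotated solute carrier genes were 3.13% higher and 4.18% lower in homozygotes and 0.522% lower in heterozygotes. Their total of 383 was not reduced in the same way. Which share is larger among expressed genes therefore cannot be told. No paired analysis was possible because the deposited lists hold no values per library, and leaving out a replicate was not run for the same reason. Depth limits every gene to an unknown degree.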

Other observations

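Markers of other tissues near the otocyst were listed unevenly. Among protein-coding genes 1.78% were higher and 2.97% lower in homozygotes, and 0.182% and 0.429% in heterozygotes. At these shares a list of 15 would hold few genes or none, and nothing is read from counts of 0. Endothelial markers had 4 of 15 higher in homozygotes and 1 of 15 higher in heterozygotes. Mesenchyme markers had 1 higher and 3 lower of 15 in each genotype. Neural crest and melanoblast markers had 0 listed in homozygotes and 4 higher in heterozygotes, and macrophage markers had 0 listed in both. Endoderm and yolk sac markers had 1 higher in homozygotes, and 4 higher and 1 lower in heterozygotes. Otic epithelium markers had 5 of 22 lower in homozygotes and 0 listed in heterozygotes. Hindbrain and spinal cord markers, given above for homozygotes, had 8 of 15 lower and 0 higher in heterozygotes. Those 8 had log2 folds between -5.54 and -0.78 in the authors' deposited table. Neuron markers had 2 higher and 1 lower of 15 in heterozygotes. The part of any of these in the solute carrier values was not tested.

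Of the 28 solute carrier genes listed in homozygotes, 4 lay next to another listed gene in RefSeq's order of protein-coding genes, 14.3%, beside 12% of all 959 listed genes placed in that order. Slc4a1 lay beside Rundc3a (log2 -1.12), Slc10a4 beside Fryl (-1.03) and Slco3a1 beside St8sia2 (-1.29), each pair lower together in the authors' deposited table. Slc1a2, at a log2 fold of -3.05, lay beside the hyaluronan receptor gene Cd44, which was higher (1.21) in the authors' deposited table.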
